A study of Mus musculus with 6 samples.

Results

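Commitment of a multipotent blood cell to the red cell lineage is driven by a small set of transcription factors. GATA1 and KLF1 switch on erythroid genes, FOG1 (encoded by Zfpm1) binds GATA1 as its cofactor, GFI1B represses genes of other fates, and NFE2 pairs with small Maf proteins at globin and platelet genes. Erythropoietin, acting through its receptor Epor, keeps committed erythroid progenitors alive, and the mature cell is filled with alpha and beta globin and with carbonic anhydrases, which interconvert carbon dioxide and bicarbonate. The 10 genes described here, Gata1, Klf1, Gfi1b, Epor, Zfpm1, Nfe2, Car1, Car2, Hba-a1 and Hbb-bt, were taken by name from the 27198 genes of the deposited expression table, with earlier results of these data known, and all 10 were listed and passed the filter on low counts.

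RNA was sequenced from hematopoietic stem cells (HSCs) sorted from bone marrow, and the question addressed is how these genes stood in HSCs after long-term ferulic acid (FA), a plant phenolic acid with antioxidant activity. All mice were wild type, male C57BL/6 animals, 8 to 10 weeks old and not irradiated. The Ctrl group of 3 libraries came from mice given solvent, and the l-FA group of 3 libraries came from mice injected intraperitoneally with FA at 50 mg/kg once a day for 30 days. The sort took cells without lineage markers, CD34 and Flk2 and with Sca-1 and c-Kit. The study's lineage cocktail includes Ter-119, an antigen of maturing red cells.

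Libraries held 19287735 to 20380610 counts. The number of mice behind each library is not given in the sources used here, so p-values measure the spread between these libraries, which may be technical. HSC markers were present in every library, with 20197 to 24070 counts of Kit and 601 to 861 of Procr. Others on the list of 13 differed between the groups in either direction. Slamf1 had 32 to 51 counts in Ctrl and 152 to 179 in l-FA, and Hlf had 2127 to 2377 and 1792 to 2100. The presence of these markers therefore does not show that the groups held the same cells. In bulk RNA, fewer cells of a type and less RNA per cell cannot be told apart. Of the 16520 genes tested by edgeR's quasi-likelihood test, 25.5% were higher and 25.0% lower in l-FA (50.5% in either direction) at an adjusted p under 0.05, two-sided and with Benjamini-Hochberg adjustment over all genes tested. Every count of genes below is to be read against these shares.

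Of the 10 genes, 5 rose in l-FA (25.5% of all genes tested did), namely Gata1, Gfi1b, Epor, Car2 and Hbb-bt, by 1.35-fold to 1.69-fold. Levels are given in CPM, counts scaled to library size by TMM. Zfpm1 alone fell (25.0% of all genes tested did), to 0.640 of its Ctrl level. Klf1, Car1, Hba-a1 and Nfe2 did not pass the test. The 10 genes included 0 that were called and also moved over 2-fold, against 11.8% of all genes tested (6.68% higher and 5.1% lower). The median log2 fold change was 0.47 over the 10 genes and 0.00 over all genes tested. The 3 l-FA libraries lay wholly above the 3 Ctrl libraries in 5 genes and wholly below in 2 (Zfpm1 and Klf1), and the groups overlapped in Car1, Nfe2 and Hba-a1, whereas the groups did not overlap in 60.3% of all genes tested (30.4% higher and 29.9% lower).

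**Figure D1:**
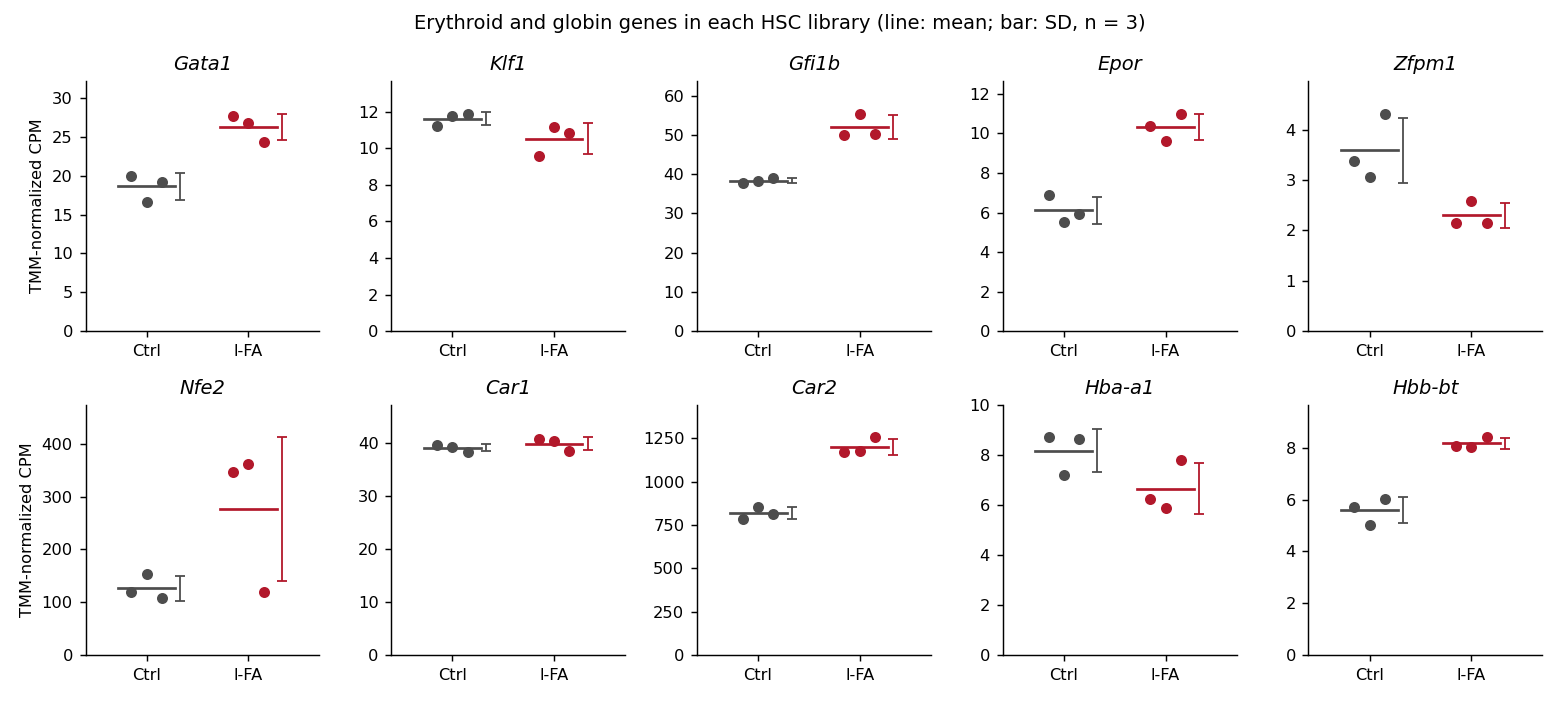
Level of each of the 10 genes in CPM (vertical axes from 0) in the 3 Ctrl and 3 l-FA libraries, with 1 point per library, a line at the mean and a bar for the SD. Gata1, Gfi1b, Epor, Car2 and Hbb-bt sit higher in every l-FA library, Zfpm1 lower, and Nfe2 has 1 l-FA library, at 118 CPM, among the Ctrl libraries.

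Sequences upstream of 4 of the regulator genes are shown because Gata1, Gfi1b and Epor rose together while Klf1 did not pass, and because GATA and CACC motifs are the letters that the GATA and KLF factors of this set are known to bind. Each is the 150 bases before the RefSeq transcription start, read 5′ to 3′ on the gene's strand in build GRCm38.p6. Capitals mark the GATA motif (AGATAA and also AGATAG as well as TGATAA and also TGATAG), the CACC motif (CCNCNCCC) and CCAAT, each on either strand and with overlaps included.
Gata1, chrX:7967911-7968060, minus strand: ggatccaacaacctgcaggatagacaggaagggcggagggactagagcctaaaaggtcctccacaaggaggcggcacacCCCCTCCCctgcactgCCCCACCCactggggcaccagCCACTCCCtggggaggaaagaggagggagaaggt
Gfi1b, chr2:28621983-28622132, minus strand: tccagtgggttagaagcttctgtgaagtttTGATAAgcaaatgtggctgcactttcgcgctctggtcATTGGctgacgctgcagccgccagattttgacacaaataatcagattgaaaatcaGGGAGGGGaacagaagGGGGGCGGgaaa
Epor, chr9:21963577-21963726, minus strand: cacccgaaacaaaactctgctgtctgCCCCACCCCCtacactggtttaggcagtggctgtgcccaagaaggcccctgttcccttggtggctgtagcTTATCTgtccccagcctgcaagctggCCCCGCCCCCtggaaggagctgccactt
Klf1, chr8:84901832-84901981, plus strand: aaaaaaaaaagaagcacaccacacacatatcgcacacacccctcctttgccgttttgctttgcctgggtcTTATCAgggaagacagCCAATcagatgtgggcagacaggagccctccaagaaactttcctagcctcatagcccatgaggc
In these windows the GATA motif was found 1 time each in Gfi1b, Epor and Klf1, and not in Gata1. It begins 54 bases before the start in Epor, 80 in Klf1 and 120 in Gfi1b, and 16.0% of all 32851 promoter windows of the same length hold one. The CACC motif was found 3 times in Gata1, 2 times in Gfi1b, 4 times in Epor with overlaps and not in Klf1, and 38.1% of all windows hold one. The window of Zfpm1, which fell and whose sequence is not printed, has the CACC motif 3 times and no GATA motif, as that of Gata1 does. CCAAT was found in Gfi1b and Klf1 and stands in 24.5% of all windows. Klf1, which did not pass the test, holds the GATA motif as Gfi1b and Epor do. Any link between these motifs and the changes in RNA was not tested. The RefSeq table matched 7 of the 10 genes, all but Nfe2, Car1 and Car2.

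Gata1 (ENSMUSG00000031162) lies on chromosome X from 7825499 to 7844310 and encodes the transcription factor without which red cells do not mature. Gene coordinates here and below are those of the deposited table, in GRCm39 by the submitters' processing notes. Gata1 stood at 20.0, 16.7 and 19.2 CPM in Ctrl libraries 1 to 3 and at 27.6, 26.8 and 24.3 CPM in l-FA libraries 1 to 3. Every l-FA library was above every Ctrl library, and the mean moved from 18.6 ± 1.73 to 26.3 ± 1.71 CPM (SD, n = 3). On the log2 scale the rise was 0.50 ± 0.090 (SE), with adjusted p = 0.00401 by edgeR.

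Gfi1b (ENSMUSG00000026815; chromosome 2, 28499462 to 28511994) encodes a zinc finger repressor needed for red cell and platelet formation. It had 37.8, 38.3 and 39.1 CPM in the Ctrl libraries and 49.9, 55.4 and 50.3 CPM in the l-FA libraries. The Ctrl libraries were nearly level and the l-FA libraries all lay above them. Its rise on the log2 scale was 0.44 ± 0.054 (SE), with adjusted p = 0.00082 by edgeR.

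Epor (ENSMUSG00000006235; chromosome 9, 21870193 to 21874802), the erythropoietin receptor, had 6.88, 5.52 and 5.92 CPM in Ctrl and 10.4, 9.62 and 11.0 CPM in l-FA. These rest on 103 to 132 counts per Ctrl library and 193 to 219 per l-FA library, and the groups did not overlap. Its 1.69-fold rise, 0.76 ± 0.11 (SE) in log2 units with adjusted p = 0.00166 by edgeR, was the largest among the 6 genes past the threshold.

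Zfpm1 (ENSMUSG00000049577; chromosome 8, 123008880 to 123063990) went the other way from its partner Gata1. It had 3.39, 3.05 and 4.32 CPM in Ctrl and 2.14, 2.59 and 2.15 CPM in l-FA, from 43 to 86 counts per library. The groups did not overlap, though Ctrl library 3 stood above the other Ctrl libraries. In log2 units the difference was -0.64 ± 0.18 (SE), with adjusted p = 0.0216 by edgeR. Removal of 1 library ended the call in 3 cases, with adjusted p = 0.0529 without Ctrl library 3, 0.0719 without l-FA library 1 and 0.0699 without l-FA library 3, by the same edgeR test. The call was also lost in a test against a 1.2-fold change.

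Klf1 (ENSMUSG00000054191; chromosome 8, 85628557 to 85631924), the activator of beta globin and many red cell genes, held 215, 220 and 237 counts in Ctrl and 201, 224 and 217 in l-FA. After scaling these were 11.2, 11.8 and 11.9 against 9.57, 11.2 and 10.9 CPM, so that the highest l-FA library sat just under the lowest Ctrl library. In log2 units the difference was -0.14, with a 95% interval from -0.35 to 0.07 (adjusted p = 0.217 from edgeR). A rise of the size seen in Gata1 lies outside that interval.

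Nfe2 (ENSMUSG00000058794; chromosome 15, 103156639 to 103166830) did not give 1 answer across the l-FA libraries. Ctrl libraries 1 to 3 held 2270, 2847 and 2132 counts, and l-FA libraries 1 to 3 held 7280, 7266 and 2366. In l-FA library 3 it thus stood within the Ctrl range, far below the other two l-FA libraries. Over all libraries the log2 difference was 1.13 ± 0.41 (SE), just short of the threshold by edgeR (adjusted p = 0.0563) and just past it by DESeq2 (adjusted p = 0.0479). Without l-FA library 3 it was 1.51 (adjusted p = 0.00108 by edgeR). Such a library, 2-fold or more away from both others in its group, was found in 376 of the 11428 genes whose mean count reached 100 (3.29%), and Nfe2 was the only one of the 10 genes among them.

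**Figure D2:**
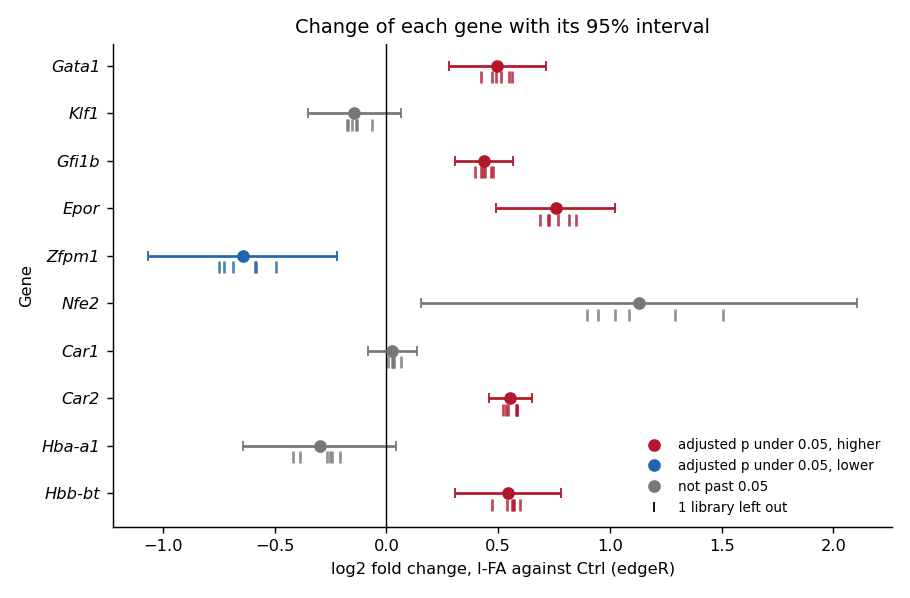
Log2 fold change of each gene in l-FA against Ctrl from edgeR (horizontal axis), with its 95% interval as a bar and the 6 fits that each left out 1 library as ticks beneath. Gata1, Gfi1b, Epor, Car2 and Hbb-bt lie between 0.44 and 0.76, Zfpm1 at -0.64, and Nfe2 has the widest interval, from 0.16 to 2.11.

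Within each library Gata1 was also set against genes of its network, on the authors' FPKM values (fragments scaled to gene length and library size). The lengths used are not given, so these ratios serve to compare libraries and not to compare the amounts of the genes. The ratio of Gata1 to Spi1, which encodes the myeloid factor PU.1, was 0.294, 0.231 and 0.292 in Ctrl and 0.491, 0.515 and 0.491 in l-FA, with no overlap. Spi1 itself fell, from 108 ± 5.02 to 82.6 ± 5.36 CPM (SD, n = 3; log2 fold change -0.38, adjusted p = 0.00197 from edgeR). The ratio of Gata1 to Zfpm1 was 7.88 to 10.4 in Ctrl and 18.3 to 22.8 in l-FA. The ratio of Gata1 to Gata2, the GATA factor of stem cells, was 0.212 to 0.377 in Ctrl and 0.325 to 0.381 in l-FA, and these ranges overlapped. Gata2 had 3130, 4531 and 3353 counts in Ctrl and 4696, 4781 and 4607 in l-FA, and its log2 fold change of 0.27 did not pass (adjusted p = 0.18 from edgeR), though without Ctrl library 2, the highest of its group, it was 0.48 (adjusted p = 0.000594). All 6 ratios given in this text were chosen after the values were seen. With 3 libraries in each group a two-sided exact permutation test cannot give a p below 0.1, which the ratios to Spi1 and Zfpm1 reached (0.12 after Benjamini-Hochberg adjustment over the 6), while the ratio to Gata2 gave an exact p = 0.8. Gata1 was wholly higher and Spi1 and Zfpm1 wholly lower in l-FA, so the ratios to Spi1 and Zfpm1 had to separate. Their p-values add nothing to the changes of the single genes.

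Car2 (ENSMUSG00000027562; chromosome 3, 14951333 to 14965830), a fast cytosolic carbonic anhydrase that stem and progenitor cells also express, was by far the most abundant of the 10 genes. It held 15089, 15973 and 16184 counts in Ctrl and 24588, 23624 and 25063 in l-FA, with every l-FA library above every Ctrl library. The mean moved from 818 ± 35.3 to 1201 ± 46.6 CPM (SD, n = 3), and the rise was 0.55 ± 0.040 (SE) in log2 units, with adjusted p = 0.000104 by edgeR. Car1 (ENSMUSG00000027556; chromosome 3, 14831276 to 14873428), its neighbour in the same cluster and a marker of erythroid progenitors, stood at 39.7, 39.3 and 38.4 CPM in Ctrl and 40.8, 40.3 and 38.5 CPM in l-FA. The log2 difference was 0.03, with a 95% interval from -0.08 to 0.14 (adjusted p = 0.654 from edgeR). In each library the FPKM ratio of Car2 to Car1 was therefore higher after l-FA, 17.2 to 19.6 against 11.9 to 13.1 in Ctrl (two-sided exact permutation p = 0.1, the smallest possible, and 0.12 over the 6 ratios). The listed span of Car1 overlaps that of the pseudogene Gm16399, so reads there may have been shared.

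Of the 16 carbonic anhydrase genes sought, 13 were listed and 9 tested. Of these 9, 5 were higher and 2 lower, and 2 did not pass. Car13, in the same chromosome 3 cluster, rose from 2.63 ± 0.0276 to 6.02 ± 0.735 CPM (SD, n = 3; log2 fold change 1.19, adjusted p = 0.000446 from edgeR), and the mitochondrial Car5b rose with a log2 fold change of 1.17 (adjusted p = 0.000518). Car12, a membrane-bound form, fell by 1.66 on the log2 scale and Car7 by 0.60, each at a far lower level than Car2. The 5 that rose included Car2 itself.

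Globin RNA was scarce in these libraries. The 4 adult globin genes listed with more than a few counts, Hba-a1, Hba-a2, Hbb-bt and Hbb-bs, together took 295 to 364 counts in Ctrl and 361 to 400 counts in l-FA, or 15.8 to 20.0 CPM over all 6 libraries. Globins are the bulk of the messenger RNA of a maturing red cell. Slc4a1, the band 3 anion exchanger of the red cell membrane, had 0, 2 and 0 counts in Ctrl and none in l-FA.

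Beta globin rose, and alpha globin did not pass the test. Hbb-bt (ENSMUSG00000073940; chromosome 7, 103461731 to 103463203), which encodes an adult beta chain, had 110, 94 and 120 counts in Ctrl and 170, 161 and 168 in l-FA. All 3 l-FA libraries lay above all 3 Ctrl libraries, with means of 5.60 ± 0.506 and 8.18 ± 0.205 CPM (SD, n = 3). The rise was 0.55 ± 0.099 (SE) in log2 units, with adjusted p = 0.00396 by edgeR. The second adult beta gene, Hbb-bs, had 24, 36 and 25 counts in Ctrl and 40, 47 and 46 in l-FA, and its log2 difference of 0.56 ± 0.22 (SE) did not pass (adjusted p = 0.0712 by edgeR). Without Ctrl library 2 it was 0.80 and passed (adjusted p = 0.0185).

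Hba-a1 (ENSMUSG00000069919; chromosome 11, 32233511 to 32234465), which encodes the adult alpha chain, had 167, 134 and 172 counts in Ctrl and 131, 118 and 156 in l-FA. l-FA library 3 lay among the Ctrl libraries, so the groups overlapped. The log2 difference was -0.30, with a 95% interval from -0.64 to 0.04 (adjusted p = 0.126 from edgeR), and it passed only without l-FA library 3 (log2 fold change -0.42, adjusted p = 0.0475). Its copy Hba-a2 had 31 to 47 counts in Ctrl and 28 to 35 in l-FA (log2 fold change -0.35, adjusted p = 0.184). Ahsp, the chaperone that holds free alpha chains, rose from 19 to 21 counts per Ctrl library to 31 to 34 per l-FA library (log2 fold change 0.60, adjusted p = 0.0219 from edgeR). That call was lost with DESeq2 (adjusted p = 0.105), and by edgeR without Ctrl library 2 (adjusted p = 0.0559) or Ctrl library 3 (0.051).

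The summed alpha count divided by the summed beta count, a measure that no scaling between libraries can alter, was 1.51, 1.27 and 1.51 in Ctrl and 0.757, 0.736 and 0.869 in l-FA. These counts are not divided by gene length, so the ratio serves to compare libraries and not to compare the amounts of the chains. It was above 1 in every Ctrl library and under 1 in every l-FA library, and the l-FA mean was 0.551 of the Ctrl mean (from 0.522 to 0.569 with any 1 library left out). The two-sided exact permutation p was 0.1, the smallest possible with 3 against 3, and 0.12 over the 6 ratios. With Hba-a1 over Hbb-bt alone the l-FA mean was 0.556 of the Ctrl mean.

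**Figure D3:**
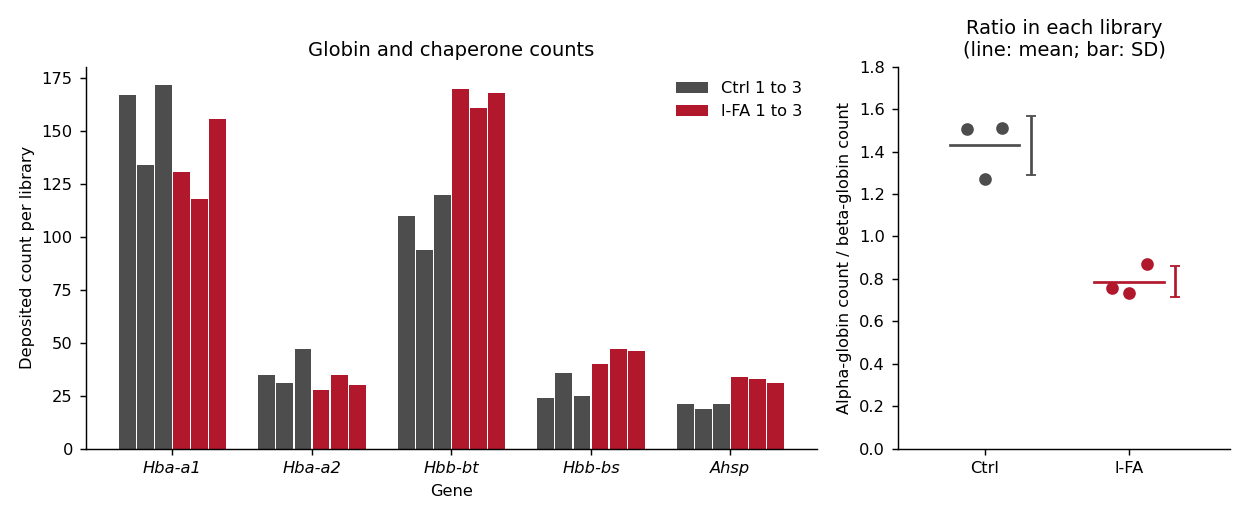
Left, deposited counts per library of 4 globin genes and the chaperone Ahsp, with bars in the order Ctrl 1 to 3 and l-FA 1 to 3. Right, the alpha to beta globin count ratio of each library with mean and SD (n = 3), which is 1.27 to 1.51 in Ctrl and 0.736 to 0.869 in l-FA.

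The globin genes come in pairs of similar copies, and upstream sequences are shown because the alpha to beta ratio moved. They are drawn as above (150 bases, GRCm38.p6, 5′ to 3′), and capitals here also mark TATAAA or TATAAG on the gene's own strand.
Hba-a1, chr11:32283522-32283671, plus strand: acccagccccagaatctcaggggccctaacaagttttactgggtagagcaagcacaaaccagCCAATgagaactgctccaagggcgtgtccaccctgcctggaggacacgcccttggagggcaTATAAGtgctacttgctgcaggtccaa
Hbb-bt, chr7:103813924-103814073, minus strand: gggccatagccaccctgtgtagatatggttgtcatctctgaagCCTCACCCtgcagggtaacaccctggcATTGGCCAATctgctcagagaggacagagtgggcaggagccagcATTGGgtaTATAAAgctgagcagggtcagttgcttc
Hbb-bs, chr7:103827929-103828078, minus strand: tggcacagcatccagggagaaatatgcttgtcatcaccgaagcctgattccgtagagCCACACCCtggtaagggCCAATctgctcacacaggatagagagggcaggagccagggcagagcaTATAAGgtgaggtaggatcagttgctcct
The window of Hba-a2 matches that of Hba-a1 at 147 of 153 aligned positions and is not printed. Hbb-bt and Hbb-bs agree at 112 of 153 aligned positions (73.2%). The CACC motif was found 1 time in each beta window and in neither alpha window, and the TATA letters, which stand in 7.28% of all windows, were found in all 4. CCAAT was found in all 4 as well, and the GATA motif in none. Any link between these motifs and the alpha to beta ratio was not tested.

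How counts were divided between the copies is uncertain. In the GENCODE M21 transcripts, 339 of the 600 stretches of 100 bases in Hba-a1 (56.5%) also occur in Hba-a2, and 331 of the 604 in Hbb-bt (54.8%) also occur in Hbb-bs, while no stretch is shared between alpha and beta. With the copies summed before the fit, the alpha pair had a log2 fold change of -0.31 (adjusted p = 0.0865 from edgeR) and the beta pair 0.55 (adjusted p = 0.00132).

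By the authors' FPKM, Car2 led the 10 genes in both groups, at 260 ± 10.6 (SD, n = 3) in Ctrl and 403 ± 14.8 in l-FA. In Ctrl it was followed by Car1 at 20.7, Nfe2 at 13.3, Gfi1b at 11.7, Hbb-bt at 7.74, Hba-a1 at 6.66, Gata1 at 6.56, Klf1 at 5.48, Epor at 2.65 and Zfpm1 at 0.715 FPKM. The ranges of 3 neighbouring pairs overlapped in Ctrl, namely Nfe2 with Gfi1b, Hbb-bt with Hba-a1, and Hba-a1 with Gata1. In l-FA the mean of Gata1, 9.76 FPKM, stood above that of Hba-a1, 5.71 FPKM, with no overlap between their ranges. Hba-a1 overlapped Klf1 at 5.24, and Klf1 overlapped Epor at 4.72 FPKM. Epor, which in Ctrl stood below Klf1 with no overlap, thus reached the range of Klf1 in l-FA. The gene lengths behind these FPKM are not given. The longest GENCODE M21 transcripts of Hba-a1 and Hbb-bt have 699 and 703 bases. In Ctrl, Hba-a1 nevertheless had more CPM than Hbb-bt (8.17 against 5.60) and a lower mean FPKM. Nfe2 had 126 CPM in Ctrl against 39.1 for Car1, also with a lower mean FPKM. The order of genes by FPKM is therefore uncertain.

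**Figure D4:**
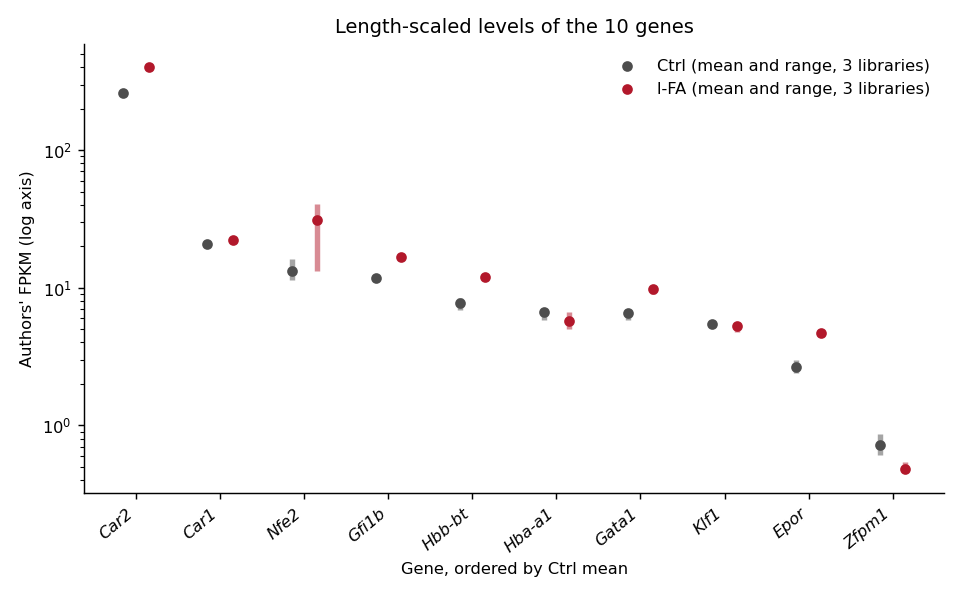
Level of each gene in the authors' FPKM on a log axis, with a point at the mean and a bar over the range of the 3 libraries of Ctrl and of l-FA, and genes ordered by the Ctrl mean. Car2 stands far above the rest at 260 and 403 FPKM, and Zfpm1 lowest at 0.715 and 0.483 FPKM.

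The RNA of genes whose proteins work with GATA1, FOG1 and GFI1B was also examined. Of 16 partner genes tested, 3 were higher (25.5% of all genes tested were), 6 lower (25.0% were) and 7 did not pass. Their median log2 fold change was -0.14. Tal1, the helix-loop-helix factor of the erythroid GATA complex, rose from 16.4 ± 0.0616 to 21.6 ± 2.35 CPM (SD, n = 3; log2 fold change 0.40, adjusted p = 0.0105 from edgeR). Ldb1, which bridges that complex, fell from 54.4 ± 2.16 to 31.7 ± 2.62 CPM (log2 fold change -0.78, adjusted p = 0.000245). Ssbp2, which stabilizes LDB1, and the deacetylase gene Hdac1 were the other two that rose, by 0.31 and 0.09 on the log2 scale, and Tcf12 and Hdac2 fell by 0.54 and 0.31. The Hdac1 call was lost without Ctrl library 1 (adjusted p = 0.0517) or Ctrl library 3 (0.0714), and with no low-count filter (0.0545). Among 5 tested partners and relatives of NFE2, Bach2 rose (0.52) while Bach1, a repressor at globin genes, and the small Maf gene Mafk fell (-0.44 and -0.10). Each of these 3 calls was lost when some libraries were left out. Bach2 had adjusted p = 0.053 without Ctrl library 3, Bach1 0.0562 without l-FA library 1, and Mafk 0.0874, 0.0748 and 0.0584 without l-FA library 1, 2 and 3, by edgeR. The Mafk call was also lost with upper-quartile scaling (adjusted p = 0.0516).

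Of 10 other regulators of erythroid fate and globin switching, 3 rose, 2 fell and 5 did not pass. Sox6, which acts with BCL11A to silence embryonic globin, rose from 17.6 ± 1.88 to 32.5 ± 0.483 CPM (SD, n = 3; log2 fold change 0.88, adjusted p = 0.000312 from edgeR), and Bcl11a rose by 0.34. Hemgn, a nuclear protein gene of blood progenitors, rose by 0.60 on the log2 scale. Ybx1, which encodes an RNA-binding protein, fell by 0.98 and Myb, a factor that keeps progenitors dividing, by 0.36. Of 7 factors of opposing fates, 4 fell and 1, Runx1, rose (0.17); the neutrophil factors Gfi1 and Cebpa had log2 fold changes of -1.96 and -1.37, alongside Spi1 above.

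Downstream of the erythropoietin receptor, 5 of 18 genes tested rose, 1 fell and 12 did not pass, with a median log2 fold change of 0.11. Socs3, a feedback inhibitor of cytokine receptors, rose from 40.4 ± 3.31 to 64.0 ± 1.82 CPM (SD, n = 3; log2 fold change 0.66, adjusted p = 0.000329 from edgeR). The adaptor Gab1 rose by 0.63 and the transcription factor Stat5b by 0.40, while the adaptor Grb2 fell by 0.88. Jak2, the kinase bound to the receptor and named here after its values were seen, had a log2 fold change of -0.24 that did not pass (adjusted p = 0.129). These genes serve many cytokine receptors besides Epor.

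Of 18 red cell membrane genes tested, 7 were higher (25.5% of all genes tested were), 5 lower (25.0% were) and 6 did not pass. Their median log2 fold change was -0.08. Epb42, protein 4.2 of the membrane skeleton, had 15 to 17 counts per Ctrl library and 32 to 55 per l-FA library (log2 fold change 1.26, adjusted p = 0.00815 from edgeR), and Sptb, beta spectrin, had 9, 2 and 9 against 36, 34 and 36. Tmod1, which caps actin filaments, fell from 3.02 ± 0.327 to 0.802 ± 0.327 CPM, while Cd59a, a complement inhibitor that many blood cells carry, rose from 7.01 ± 0.656 to 15.7 ± 1.60 CPM (SD, n = 3). Dmtn, named after its values were seen, had 7 to 11 counts in Ctrl and none in l-FA and was thus at least 3.18-fold lower (floor of 3 counts per library).

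Among 11 tested genes of heme synthesis and erythroid iron supply, 6 fell and 2 rose, with a median log2 fold change of -0.42. Cpox, which makes protoporphyrinogen, fell by 1.42 on the log2 scale, the mitochondrial carrier Slc25a38 by 0.56 and Tfrc, the transferrin receptor, by 1.07, while Ppox and Urod rose by 0.31 and 0.18. The Urod call was lost without Ctrl library 1 (adjusted p = 0.0659), Ctrl library 2 (0.0656) or l-FA library 1 (0.0506). Alas2, the red cell form of the first enzyme of heme synthesis, held 0, 1 and 0 counts in Ctrl and 10, 6 and 4 in l-FA, too few to be tested.

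Some markers of other cells that express some of these genes moved with the groups, and their part in the results above was not tested. Of 12 megakaryocyte genes, 7 rose and none fell, and their summed level was 508 to 542 CPM in Ctrl and 693 to 697 in l-FA. Gp9 was among them (log2 fold change 1.41, adjusted p = 0.000269 from edgeR), and Gp6 was at 0 in every Ctrl library. Of 9 eosinophil genes, 5 rose and 2 fell, and the sum was 159 to 160 CPM in Ctrl and 278 to 279 in l-FA. Gata1 is known to act in both of these lineages. Of 9 tested mast cell and basophil genes, 4 rose and 1, Hdc, fell (-2.56). Their sum was 474 to 548 CPM in Ctrl and 479 to 486 in l-FA, Cma1 and Tpsb2 were at 0 in every Ctrl library, and Tpsb2 was at least 16.3-fold higher in l-FA.

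Granulocyte and monocyte genes made up the largest shift, with 13 of 14 lower, 1 higher (Csf1r, log2 fold change 0.10, adjusted p = 0.0363 from edgeR) and a sum of 23516 to 24354 CPM in Ctrl against 5853 to 6176 in l-FA. The Csf1r call was lost with any library other than l-FA library 1 left out (adjusted p from 0.0672 to 0.0942), with DESeq2 (0.0724) and with no low-count filter (0.059). By contrast the 13 listed erythroblast genes summed to 50.3 to 54.6 CPM in Ctrl and 68.8 to 72.5 in l-FA, with Slc4a1 and Trim10 at 0 in l-FA. Of the 10 tested, 5 rose and 2 fell. Most of the rise in the sum came from Hemgn, the most abundant of these genes, at a mean of 26.8 CPM in Ctrl and 40.5 in l-FA. The 4 globin genes in the sum took 15.8 to 18.3 CPM in Ctrl and 17.6 to 20.0 in l-FA. The 12 genes of early erythroid progenitors summed to 281 to 287 CPM in Ctrl and 249 to 259 in l-FA, with 6 higher and 1, the abundant Tfrc, lower. The other cell types gave 2 of 6 lymphoid genes higher and none lower (Dntt rose by 0.48), and 8 of 13 HSC genes higher and 1, Hlf, lower. The marker lists overlap the 10 genes by 2 for erythroblasts and 4 for early progenitors.

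**Figure D5:**
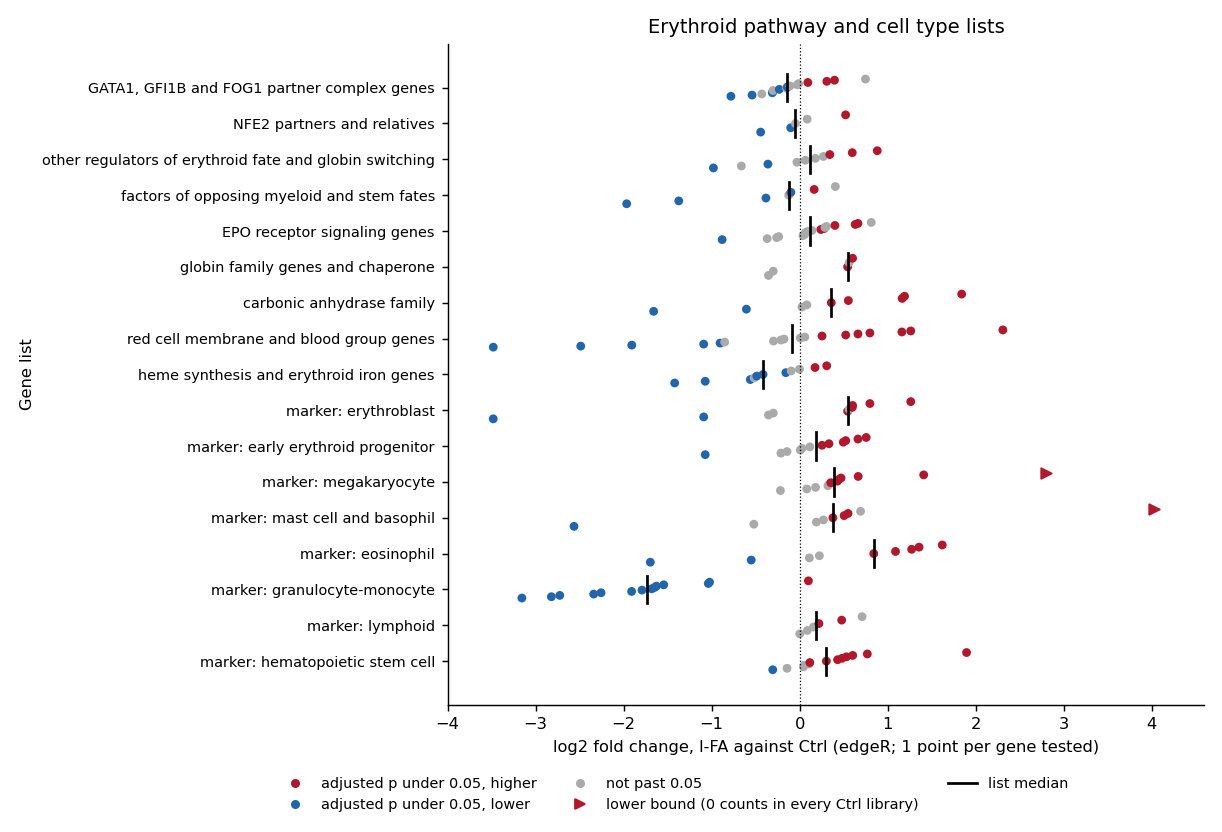
Log2 fold change in l-FA against Ctrl (horizontal axis) of each tested gene in the pathway and cell type lists, coloured by the edgeR call, with a black line at each list's median and triangles at the bound for genes with no count in Ctrl. Medians lie from -0.42 for heme synthesis to 0.55 for the globin list among pathway lists, and the granulocyte-monocyte list stands apart at -1.74.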

How the data were processed

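RNA of sorted HSCs was amplified with a SMART-Seq kit and sequenced (3 Ctrl and 3 l-FA libraries). The deposited table gives unnormalized whole-number counts for each gene and FPKM values, both made by the authors. The submitters' processing notes name HISAT2, SAMtools 1.3.1, StringTie, edgeR and build GRCm39. Annotation and strand setting are not given in the sources used here. Of 25672 identifiers shared with a GRCm38 annotation, 580 had the same coordinates.

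The count test was edgeR 4.0.16 run under R 4.3.3 (TMM, filterByExpr, glmQLFit, glmQLFTest; 16520 genes kept of 27198), the code having been tested on simulated data. The study's own tool, DESeq2 1.42.0, was an alternative, as were RLE and upper-quartile scaling, other low-count filters, a replicate block, single libraries left out, summed globin copies, a 2-fold limit and a test against 1.2-fold (glmTreat). CPM use TMM library sizes. FPKM served to compare genes and, as ratios between genes within a library, to compare libraries. Standard errors were taken from the log2 fold change and the F statistic.

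The 10 genes and all lists were chosen with earlier results of these data known. Named genes are the 10, up to 3 higher and 3 lower genes per list past the threshold with a mean of at least 1 CPM, other globins, Gata2 and Spi1. Kit, Procr, Slc4a1, Alas2, Jak2, Dmtn, Trim10, Gp6 and Cma1 were named after their values were seen. Libraries held 19287735 to 20380610 counts. Reads carry no molecular identifiers, and the counting floor of 3 counts covers counting error only.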

Additional observations from a re-analysis of the deposited data

How the results depend on the processing

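The count of 5 higher genes among the 10 was 5 to 6 under every alternative except the 2-fold limit, which was set on the main edgeR fit and left 0. Nfe2 was the sixth with DESeq2 (log2 fold change 1.13, adjusted p = 0.0479) and without l-FA library 3 (log2 fold change 1.51). In both of these fits Nfe2 was also over 2-fold, the limit that the study used with DESeq2. The single lower gene, Zfpm1, was lost with the replicate block (0 genes; log2 fold change -0.63, adjusted p = 0.0591 from edgeR), with the 1.2-fold test (0) and with the 2-fold limit (0). With 1 library left out, 0 to 1 genes were lower, and without l-FA library 3 that gene was Hba-a1. No direction of the 10 genes changed under the 13 alternatives run for each. The same was done for 65 other genes picked for naming, not all of which appear in this text. Of their 840 values, 807 kept their direction and side of the threshold, 31 lost it, 2 gained it and 0 changed sign. Over all genes 8336 were called, against 7405 with the replicate block, 4516 with the 1.2-fold test and 1946 with the 2-fold limit. Same-numbered libraries did not deviate together over the genes tested (correlations 0.0187, -0.0132 and -0.050). This cannot tell whether they were collected or prepared together, which the labels do not state. Among the other genes named, the replicate block ended the calls of Ahsp (adjusted p = 0.0542), Hdac1 (0.0686) and Csf1r (0.0962), by edgeR. The 1.2-fold test and the 2-fold limit call fewer genes by construction, and for the other changes the cause was not tested. Depth was 43 to 86 counts per library for Zfpm1 and 24 to 47 for Hbb-bs, and no detection limit was computed.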
